A study of Mus musculus with 6 samples.

Results

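The piRNA genes described here are 106 piRNA precursor genes that carry the name of a host gene, nearly all of them protein coding, out of 214 piRNA genes with reads in the series. A piRNA gene was taken as all cluster transcripts of 1 name once the final number is removed. Of 114 such genes with a host name, 8 were left out by name (pi-D730040F13Rik, pi-Tfcp2l1, pi-Zmat3, pi-Foxo3, pi-Phf20, pi-Nsd1, pi-Elk4 and pi-D10Wsu102e), and the other 100 piRNA genes are named after a chromosome band. The rule uses names and no read count, but the 8 names were left out with results of these libraries known. Hosts of 105 members were found in the GENCODE vM21 annotation, 6 of them under a newer symbol (pi-Ccrn4l, for example, is named after the older symbol of Noct), and 104 of these hosts are annotated as protein coding.

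The small RNA was taken from primordial germ cells, the fetal precursors of sperm, purified from male mice at stage E13.5. One group of 3 libraries was made from cells treated with ionizing radiation (IR), and a control group of 3 libraries from cells that received none. The labels give no strain, genotype, dose or time after irradiation, and leave unsaid whether replicates were separate animals, so the p-values rest on a spread between libraries that may be technical. In bulk samples, fewer cells of a type and less RNA per cell cannot be told apart.

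Piwi-interacting RNAs (piRNAs) are germline small RNAs that guide PIWI proteins to transposon transcripts, which are then cut or silenced at the chromatin. They are cut from long single-stranded precursors. In fetal male germ cells many are processed from the 3' untranslated regions (3' UTRs) of messenger RNAs, and mature piRNAs typically begin with U and are longer than microRNAs. Fragments of ordinary messenger and structured RNAs also lie on precursor sequences, and a read placed on a cluster is not by that fact a piRNA.

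The 6 files held between 7788 and 11280 reads on cluster transcripts, of which 5889 to 9017 lay on 1 piRNA gene only and were counted. The members took 1139, 986 and 1630 of these reads in the controls and 1450, 1455 and 1062 after IR, 7722 in all. As the files hold only reads on cluster transcripts, these totals are not the depth of the libraries, and a count of 3 reads is 0.184% to 0.304% of a library's member reads. IR replicate 2 stood apart in 1 respect: it held 63 member reads of more than 50 nt, against 1 to 8 in each other library, and 60 of its 63 were antisense. No gene of the fixed marker lists for germ, Sertoli, Leydig, endothelial or blood cells is the host of a member, so the purity of the cells could not be checked with these reads.

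The sequences below show 3 kinds of member read, which overlap and do not cover all member reads. They are exact pieces of the host messenger RNA, reads with the sequence of another small RNA, and first-U reads of 24 to 32 nt. That size range is taken here as piRNA-sized. Of the 8 most copied member sequences of at most 30 nt, 6 matched an annotated mouse RNA exactly and are printed in the 5′ to 3′ direction of the read.
pi-Rcan3, 39 reads: cacgcgggaaccgagtccacc
pi-Ccrn4l, 32 reads: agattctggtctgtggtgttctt
pi-Ccrn4l, 29 reads: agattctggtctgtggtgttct
pi-Strbp, 31 reads: tatacatacacgcacacata
pi-Zyg11a, 20 reads: aagcttccaagactccagac
pi-Abl2, 18 reads: catggaggtctctgtctgact
The pi-Rcan3 read lies in the coding part of Rcan3 (chr4:135416561-135416581, minus strand, mm10) and is also the sequence of the microRNA precursor Mir700. Both pi-Ccrn4l reads start at the same base of the annotated 5' UTR of Noct (chr3:51240332-51240354, plus strand), differ by 1 base at the 3′ end, and also occur in other transcripts such as Snhg14. The pi-Strbp read is antisense to its cluster and exactly that of Mir466 family precursors, the pi-Zyg11a read is a piece of 7SK RNA (Rn7sk), a regulator of transcription elongation, and the antisense pi-Abl2 read is exactly that of Mir1843b.

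On pi-Strbp, pi-Abl2 and pi-Gabpb2, the most copied read of microRNA sequence differed from the host's own sequence at 2 bases, shown in capitals in the read and in the host stretch on the same strand.
pi-Strbp read: tatacatacacGcacacaTa
Strbp, antisense to chr2:37579836-37579855: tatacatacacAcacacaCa
pi-Abl2 read: cAtggaggtCtctgtctgact
Abl2, antisense to chr1:156643361-156643381: cCtggaggtGtctgtctgact
pi-Gabpb2 read: cagtcttactatgtagcCctA
Gabpb2, chr3:95183572-95183592 (minus strand): cagtcttactatgtagcTctG
The mature microRNAs nearest to the last pair of reads are given from RefSeq (build GRCm38.p6), with the seed (bases 2 to 8) in capitals.
miR-1843b-5p: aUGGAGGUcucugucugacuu
miR-1191a: cAGUCUUAcuauguagcccua
The pi-Gabpb2 read has the sequence of miR-1191a, and the pi-Abl2 read begins 1 base before miR-1843b-5p.

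First-U reads of 24 to 32 nt were most numerous on pi-Fth1 (158 reads), pi-Rplp1 (69), pi-Zfp652 (46) and pi-Ccrn4l (44). The most copied such sequences that match a host exon exactly are printed for pi-Fth1 and pi-Rplp1. For pi-Ccrn4l, 1 of those tied at 2 reads is printed, and it also occurs in Gm37917. An unprinted one of 24 nt lies at chr3:51240298-51240321 in the 5' UTR and also occurs in other transcripts. On pi-Zfp652 the most copied had 2 reads each and matched another transcript or were not placed. The capital marks the first base, written T as in the files.
pi-Fth1, coding part, 6 reads: Tacgtctatctgtctatgtcttgttatt
pi-Fth1, 5' UTR, 6 reads: Tgcaacttcgtcgttccgccgctccagc
pi-Rplp1, 3' UTR, 5 reads: Tgttaagttggctaataaagagctgaacc
pi-Ccrn4l, 5' UTR, 2 reads: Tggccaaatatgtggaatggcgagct
The first Fth1 sequence spans an exon junction (chr19:9982966-9984190, plus strand), the second lies at chr19:9982812-9982839, that of Rplp1 at chr9:61913287-61913315 (minus strand) and that of Ccrn4l at chr3:51241474-51241499 (plus strand). With at most 6 copies each, these sequences hold a small part of the members' piRNA-sized reads.

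Member reads were few per gene and nearly all different. A member had 45 reads in the 6 libraries together at the median, with a range from 2 (pi-Cdc42ep3) to 609 (pi-Ccrn4l), and 20 members had over 100. The 4 members with the most reads took 24.6% of member reads and the 10 highest 38.7%. The reads were of 6630 distinct sequences, of which 6148 were seen once and 21 were seen in 10 or more reads. Between 96 and 104 members had a read in each library.

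pi-Ccrn4l, named after the gene of nocturnin, a circadian phosphatase, held 97, 83 and 142 reads in the controls and 95, 102 and 90 after IR. pi-Zfp652, at the gene of a zinc finger transcription factor, held 116, 86 and 113 control and 90, 102 and 64 IR reads. pi-Fth1, at the gene of the ferritin heavy chain that stores iron, held 28, 62 and 137 control and 46, 60 and 44 IR reads. The control libraries of pi-Fth1 thus spread more widely than the IR libraries, and the raw counts of the 2 groups, from libraries of unequal size, overlap in all 3 of these members. pi-Rplp1, at a gene of the ribosomal stalk, held 54, 43 and 83 control and 69, 53 and 41 IR reads, and pi-Cbx5, at the gene of heterochromatin protein 1 alpha, 30, 26 and 49 control and 42, 46 and 32 IR reads. In pi-Kcng3, at a potassium channel subunit gene, the counts were 22, 24 and 41 against 35, 55 and 26. The remaining members among the 10 with the most reads were pi-Abl2 (a tyrosine kinase), pi-Zyg11b and pi-Zyg11a (adaptors of ubiquitin ligases) and pi-Strbp (a spermatid RNA-binding protein), with 149 to 180 reads each.

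**Figure D1:**
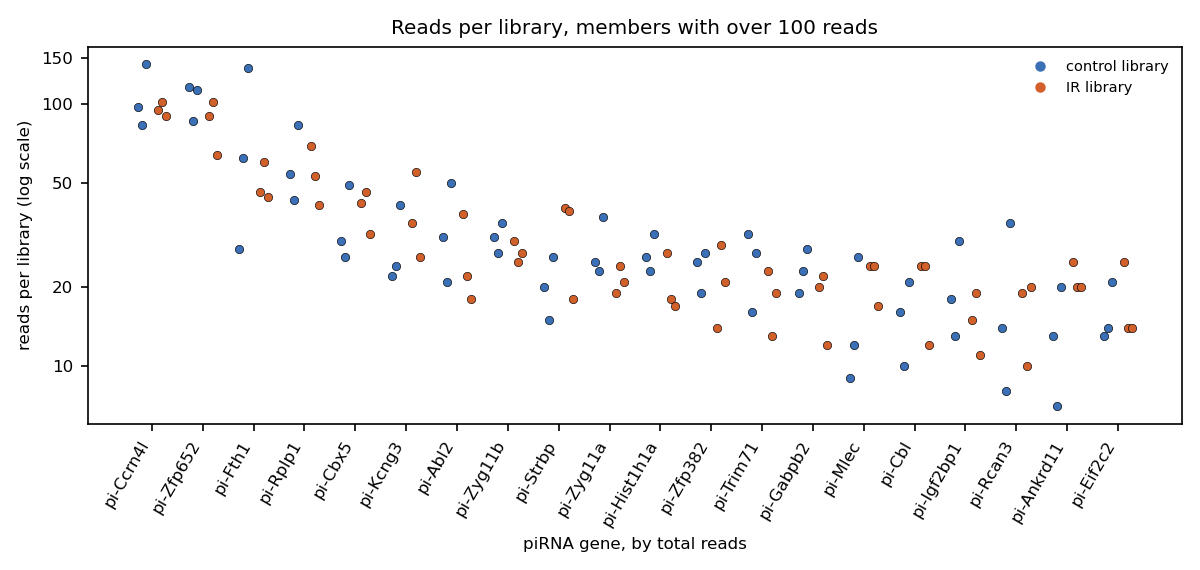
Reads per library (log axis) of the 20 members with over 100 reads, with control libraries in blue and IR libraries in orange, 1 point per library. The points of pi-Fth1 in the control group run from 28 to 137 and those of the IR group from 44 to 60.

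What the reads match was asked by comparing each with the host's annotated transcripts. Of 7722 member reads, 3199 (41.4%) matched a host exon exactly and in sense, 1464 with 1 mismatch, 1018 (13.2%) with 2 mismatches, and 41 matched exactly in antisense. Reads without an exact host match that copied another annotated RNA exactly were classed by that RNA first, whatever their mismatches to the host. They numbered 206 for another structured RNA and 544 for another transcript, and 1250 reads were not placed on the annotated host exons. This last class was concentrated in a few members: it held 462 of the 571 reads of pi-Zfp652, 118 of 203 in pi-Kcng3, 108 of 135 in pi-Zfp382 and 82 of 149 in pi-Zyg11a. In the 61 members with at least 40 reads, the exact sense share ran from 0.0% to 69.6%, with a median of 48.9%.

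**Figure D2:**
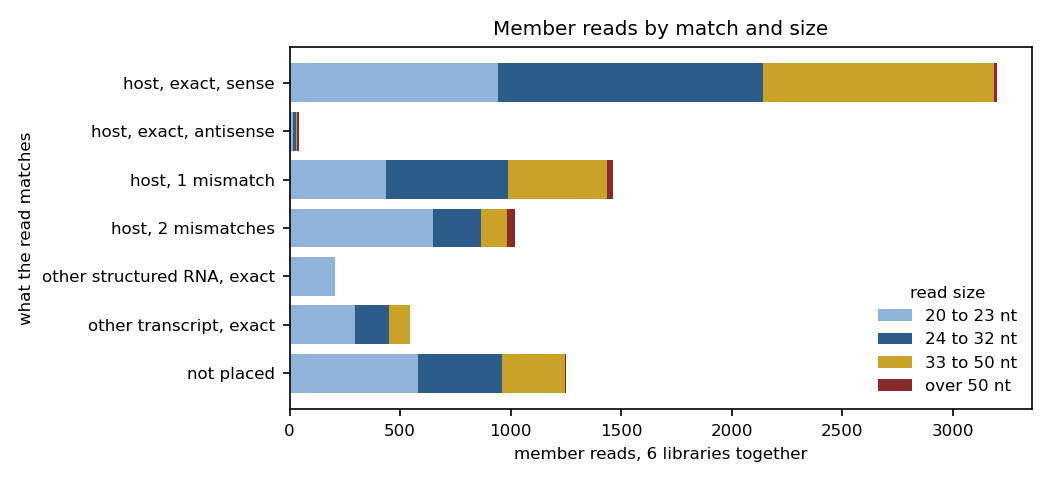
Reads of all members in the 6 libraries by what they match (rows) and by read size (colours), as numbers of reads. The exact sense host reads (3199) hold all sizes, whereas 204 of the 206 reads with the sequence of another structured RNA are 20 to 23 nt long.

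Among the 1377 sense reads with 1 mismatch, 62.9% differed at the last base and 3.56% at the first. The unmatched last base was U in 346 reads, C in 238, A in 217 and G in 65. Last-base mismatches took 71.9%, 66.8% and 63.2% of such reads in the controls and 66.7%, 54.2% and 50.0% after IR (exact permutation p = 0.2, n = 3 a group). The IR libraries were lower on average and the groups overlap.

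Strand set the members apart from band-named piRNA genes. Member reads were in sense in 83.3% ± 3.78 of cases (SD, n = 6 libraries), band-named reads in 41.8% ± 3.84, and the members were higher in 6 of 6 libraries (difference 41.5 percentage points, exact sign-flip permutation p = 0.03125, adjusted p = 0.05 over 8 tests). The left-out host-named genes were more often in sense still, at 93.9%, and higher than the members in each of the 6 libraries (p = 0.03125, adjusted p = 0.05, exact). Distinct sequences per 100 reads numbered 91.2 ± 2.38 on the members, 51.6 ± 4.22 on band-named genes and 35.7 ± 2.11 on the left-out genes, with the same exact permutation p and adjusted p in both comparisons. This measure depends on the number of reads per gene, which was not made equal between the sets. Reads of 24 to 32 nt took 32.5% ± 3.5 of member reads, 27.5% ± 4.54 on band-named genes (adjusted p = 0.167, exact permutation) and 46.0% ± 2.33 on the left-out genes (adjusted p = 0.05). The share of first U among reads of 24 to 32 nt was 34.9% ± 2.91 on members and did not differ detectably from either (adjusted p = 0.286 and 0.969, exact permutation). As 0.05 is the smallest adjusted p these libraries gave, none of these values is below 0.05. The left-out genes were chosen with results of these libraries known, so the comparisons with them describe that choice and are not independent tests.

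Among members with at least 40 reads, the sense share ran from 22.0% in pi-1700016M24Rik to 100%, with a median of 88.2%. pi-Zfp382, at a zinc finger gene, had 46.7% sense reads and pi-Mcart1, at the mitochondrial carrier gene Slc25a51, 48.6%. pi-Fth1, pi-Rplp1 and pi-Hist1h1a had sense reads only, and 98 members had at least 1 antisense read. Of 1298 antisense reads only 41 matched the host exactly, while 363 were in the class with 2 mismatches to it and 448 were not placed.

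Exact host reads lay along whole messenger RNAs and not in the 3' UTR alone. Of the 3199, 1808 (56.5%) lay in 3' UTRs, 1007 (31.5%) in coding parts and 380 (11.9%) in 5' UTRs. A read's region was taken from the longest annotated coding transcript that held it, and other choices were not tried. In some hosts the longest such transcript has a short coding part. That of Ankrd11 has 294 coding and 8064 3' UTR bases. The shares and the densities per kilobase depend on this choice. Per kilobase of annotated region, the mean over libraries was 0.647 reads in 3' UTRs, 0.867 in coding parts and 1.84 in 5' UTRs (3' UTR below coding part in 6 of 6 libraries, exact sign-flip permutation p = 0.03125, adjusted p = 0.0677 over 13 tests). A few members set this order. Without pi-Fth1, pi-Rplp1, pi-Hist1h1a and pi-Ccrn4l, 4 members chosen after their values were seen, the densities were 0.606, 0.533 and 0.342. The 3' UTR was then above the coding part in 5 of 6 libraries (exact permutation p = 0.0625, adjusted p = 0.116).

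Relative to the length of the host transcript, pi-Rplp1 had the highest density of exact reads, 441 per kb over the 6 libraries together, followed by pi-Fth1 with 166, pi-Hist1h1a with 132, pi-Ccrn4l with 28.5 and pi-Cbx5 with 14.9. In pi-Fth1 77.0% and in pi-Hist1h1a, at a linker histone gene, 88.8% of exact reads lay in the coding part. In pi-Cbx5 86.3% lay in the 3' UTR. In pi-Ccrn4l 272 of 279 exact reads lay in the 5' UTR of the longest annotated Noct transcript, a region of 7607 bases. Among the members listed here, the 3 hosts with the shortest transcripts head the order per kb. This did not hold for every short host. pi-Lsmd1, named after its values were seen, had 14.9 exact reads per kb on a transcript of 0.671 kb.

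The size of reads differed between members. Over all members, 40.4% of reads were 20 to 23 nt, 32.7% 24 to 32 nt and 25.8% 33 to 50 nt. pi-Fth1 had 59.7% of its reads at 24 to 32 nt, pi-1700016M24Rik 52.0% and pi-Zfp866, at a zinc finger gene, 51.9%. At the other end stood pi-Ipmk, at an inositol kinase gene, with 6.52%, pi-Rcan3, at the gene of a calcineurin regulator, with 7.55% and pi-Gabpb2, at a transcription factor subunit gene, with 16.1%. The reads of Mir700 sequence in pi-Rcan3 numbered 8, 2 and 18 in the controls and 6, 4 and 14 after IR, out of 106 reads. In pi-Gabpb2 the reads of exact Mir1191 sequence with 2 mismatches to the host numbered 4, 3 and 2 in the controls and 0, 7 and 1 after IR. This leaves out those that also match Gm42467, which numbered 1, 1 and 0 against 0, 0 and 0. Reads of exact Mir1191 sequence with 1 mismatch numbered 0, 2 and 3 against 2, 0 and 0. None of these sets of microRNA reads separated the groups.

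First base U was more frequent than U at later positions in exact host reads. At 24 to 32 nt, U stood first in 38.2% ± 3.13 of 1201 reads and at positions 2 to 20 in 27.3% ± 0.639, higher in 6 of 6 libraries (exact sign-flip permutation p = 0.03125, adjusted p = 0.0677, a family of 13 tests chosen after the data were seen). At 33 to 50 nt the values were 35.0% ± 0.866 and 27.4% ± 1.12, again higher in 6 of 6 libraries (exact permutation p = 0.03125, adjusted p = 0.0677). At 20 to 23 nt they were 29.6% ± 5.44 and 26.2% ± 1.54, higher in 3 of 6 (p = 0.25, exact permutation). A at position 10, the mark of piRNAs made by reciprocal cutting of sense and antisense transcripts, was not above the other positions at any of the 3 sizes. At 24 to 32 nt it was 25.2% against 26.7% (exact permutation p = 0.375, adjusted p = 0.443).

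Much of the first-U excess at 24 to 32 nt came from 2 members. In pi-Fth1, 101 of 144 exact reads of this size (70.1%) began with U and in pi-Rplp1 53 of 108 (49.1%), against 32.5% of the 949 reads of the other members. Without pi-Fth1 and pi-Rplp1 the excess of first U over later positions was 4.88 percentage points, higher in 5 of 6 libraries (exact permutation p = 0.15625, adjusted p = 0.254). Counting all reads of 24 to 32 nt, and not the exact ones alone, pi-Bcl2l13, at the gene of a mitochondrial BCL2-like protein, had 8 of 14 beginning with U and pi-Acvr2b, an activin receptor, 12 of 23. These shares rest on few reads.

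The effect of irradiation on the number of reads was tested across all piRNA genes with edgeR. Of the 106 members, 44 had enough reads to be tested, and 0 passed an adjusted p of 0.05, against 7.77% of the 103 piRNA genes tested. Of the 8 genes called, 4 are among the host-named genes left out and 4 are band-named, so the count of 0 follows in part from the choice of names. At an unadjusted p under 0.05 there were 3 members, 2 higher and 1 lower in IR, against 18.4% of all tested genes, and DESeq2 gave 0 at an adjusted p under 0.05 and 0 unadjusted. The median log2 fold change was -0.03 over the members and 0.042 over all tested genes, and the members ran from -0.73 to 0.93. The lowest adjusted p among members was 0.229 (edgeR). The depth of these libraries allows only large changes to be seen, since a simulated 2-fold change was recovered in 44% of cases over the 103 genes tested. The simulation gave every gene the same dispersion, and the share recovered was not computed for the members alone. CPM are reads scaled to a library's counted reads on the tested genes. Groups that did not overlap in CPM were seen in 3 members higher in IR, against 13.6% of all tested genes, and in 3 members lower, against 10.7%.

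pi-Dnmt3a, at the gene of a de novo DNA methyltransferase, held 8, 3 and 7 reads in the controls and 14, 14 and 10 after IR. Its level was 839 ± 264 CPM in the controls and 1659 ± 51.4 CPM in IR, and every IR library lay above every control library. The log2 fold change was 0.93 with an SE of 0.39 (edgeR adjusted p = 0.229). Of its antisense reads 6 of 7 were in IR replicate 2, and without that library the log2 fold change was 0.88. Reads matching Dnmt3a exactly and in sense numbered 4, 3 and 5 against 12, 4 and 4, so that the exact reads separated the groups less than all reads did.

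pi-Klhl11, at the gene of a ubiquitin ligase adaptor, held 8, 6 and 13 control and 15, 17 and 22 IR reads, again without overlap in CPM. The log2 fold change was 0.88 with an SE of 0.40 (adjusted p = 0.245, edgeR). Most of its reads, 58 of 81, were not placed on annotated Klhl11 exons, and without IR replicate 3 its log2 fold change was 0.47. pi-Fam168b held 6, 8 and 12 control and 17, 14 and 11 IR reads and was the third member whose IR libraries all lay above the control libraries in CPM (0.53, SE 0.37, adjusted p = 0.385). It was named after its values were seen. pi-Igsf9b, at the gene of an immunoglobulin-family adhesion protein, pi-Tacc1, a centrosomal coiled-coil protein, and pi-Ankrd11, a chromatin regulator, had log2 fold changes of 0.64, 0.61 and 0.58 and adjusted p of 0.284, 0.307 and 0.284 (edgeR). Single libraries moved these values: pi-Igsf9b was 0.17 without IR replicate 2, pi-Tacc1 0.29 without control replicate 1 and 1.10 without control replicate 3, and pi-Ankrd11 0.36 without control replicate 2. Reads matching Tacc1 exactly and in sense numbered 1, 1 and 0 in the controls and 9, 9 and 5 after IR, with no overlap and too few to be tested, whereas its reads as a whole (7, 8 and 20 against 25, 18 and 16) overlapped. This count was singled out after the values were seen.

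pi-Zfp652 was 15240 ± 475 CPM in the controls and 11110 ± 634 CPM in IR (SD, n = 3), and its CPM values did not overlap (log2 fold change -0.45, SE 0.21, adjusted p = 0.245, edgeR). Its sense reads numbered 80, 56 and 77 in the controls and 44, 60 and 34 after IR, and its antisense reads 36, 30 and 36 against 44, 41 and 30. With strands counted apart the log2 fold change was -0.70 for the sense reads (SE 0.23, adjusted p = 0.0942, edgeR) and 0.10 for the antisense reads (adjusted p = 0.803). The lower IR level was thus on the sense strand, though the difference between the strands was not tested. pi-Hist1h1a, with 26, 23 and 32 control and 27, 18 and 17 IR reads, and pi-Igf2bp1, at the gene of a fetal mRNA-binding protein, with 18, 13 and 30 control and 15, 19 and 11 IR reads, were the other members whose groups did not overlap in CPM. Their log2 fold changes were -0.53 and -0.57, each with an adjusted p of 0.280 (edgeR), and that of pi-Igf2bp1 was -0.32 without control replicate 3.

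pi-Fth1 had the lowest log2 fold change of the members tested, -0.73 (SE 0.41, adjusted p = 0.280, edgeR), a value that depended on which control library was left out. Its control libraries held 3707, 11277 and 17841 CPM and its IR libraries 5391, 6939 and 7555 CPM. Without control replicate 1 the log2 fold change was -1.15 and the adjusted p 0.0122, and without control replicate 3 they were -0.17 and 0.828 (edgeR). Its reads of 24 to 32 nt began with U in 64.3%, 81.6% and 81.2% of cases in the controls and 40.9%, 50.0% and 59.1% after IR, on 14 to 101 reads each, and the groups did not overlap. pi-Cbfa2t2, a transcriptional corepressor, pi-Il17rd, a receptor that dampens growth factor signalling, and pi-Trim71, a developmental RNA-binding ubiquitin ligase, had log2 fold changes of -0.70, -0.65 and -0.56 and adjusted p of 0.280 to 0.287. That of pi-Trim71 was -0.35 without IR replicate 2.

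**Figure D3:**
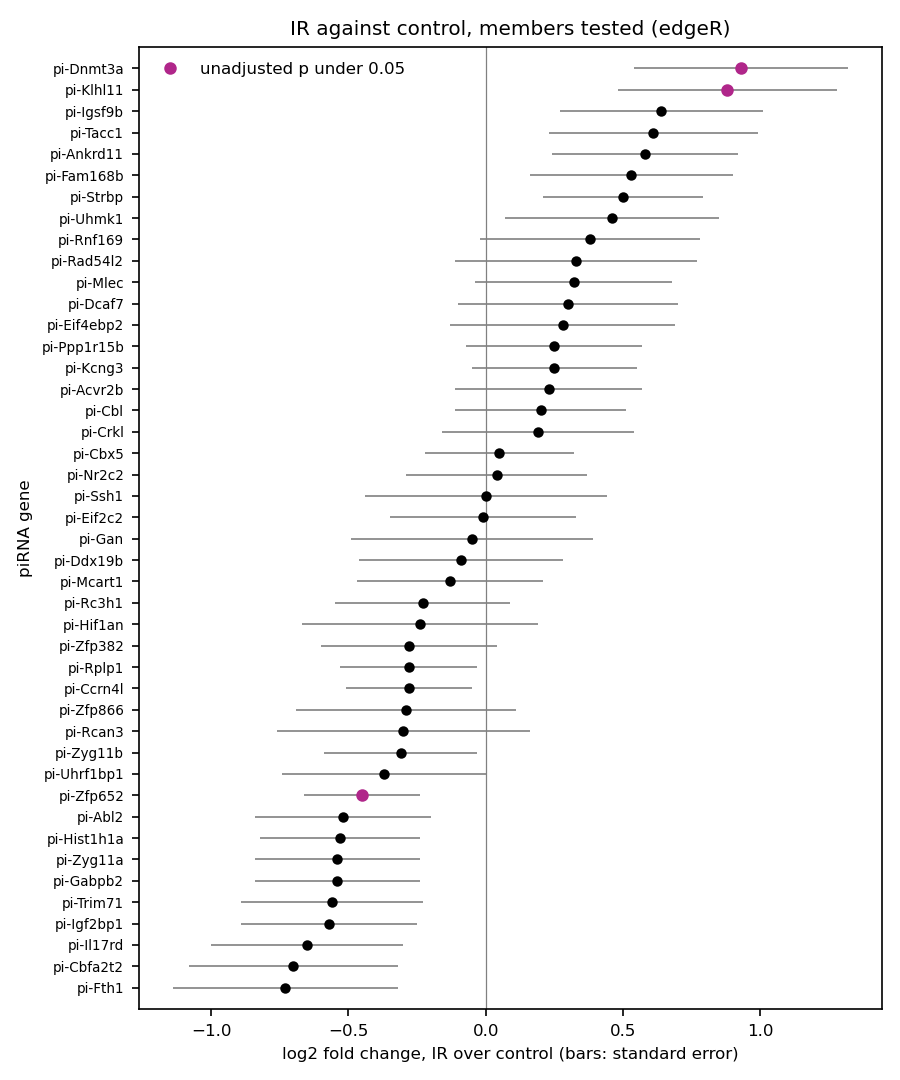
Log2 fold change of IR over control (x axis, bars are standard errors from edgeR) for the 44 members tested, in order of size. pi-Dnmt3a (0.93) and pi-Klhl11 (0.88) stand at the top and pi-Fth1 (-0.73) at the bottom, and the coloured points are the 3 members with an unadjusted p under 0.05.

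Grouped by the function of the host, no group had a member called by edgeR. Of 6 tested members at chromatin and DNA methylation genes, 4 had a positive and 2 a negative log2 fold change, with a median of 0.19 and 0 called. Of 10 at genes of RNA binding and translation, 3 were positive and 7 negative (median -0.16), and of 5 at transcription factor genes 1 was positive and 4 negative (median -0.29). For ubiquitin ligases and adaptors the counts were 3 and 3 of 6 (median 0.08), and for membrane proteins and metabolism also 3 and 3 of 6 (median 0.06). Kinases, phosphatases and signalling had 3 and 3 of 7 (median 0.0), cytoskeleton and trafficking 1 and 1 of 2 (median 0.12). The other or little described hosts had 2 and 0 of 2 (median 0.42). The median over all tested piRNA genes was 0.042, and the split by sign over them is not given. The groups go by the name of the host, and not all reads match it. Exact sense reads were 12 of 571 in pi-Zfp652, 1 of 135 in pi-Zfp382, 8 of 81 in pi-Zfp866, 56 of 124 in pi-Gabpb2 and 48 of 82 in pi-Nr2c2. None of the 30 p53 target genes and none of the 22 DNA repair genes on the lists used is the host of a member. For the p53 list this follows in part from the choice of names, since Zmat3 is on it and pi-Zmat3 was left out by name. The lists of histones and of piRNA pathway genes have 1 member each, pi-Hist1h1a and pi-Dnmt3a.

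The members' share of counted reads was 14.6%, 15.4% and 19.5% in the controls and 16.1%, 16.6% and 18.0% after IR (16.5% ± 2.67 against 16.9% ± 1.01, exact permutation p = 0.8, n = 3 a group). The smallest p that 3 libraries against 3 can give is 0.1. The share of reads of 24 to 32 nt was 34.6% ± 4.07 in the controls and 30.4% ± 1.05 in IR (exact permutation p = 0.2), and the first-U share of these reads 33.2% ± 3.05 and 36.7% ± 1.73 (p = 0.3, exact permutation). The groups overlapped in these 3 measures. Among exact host reads, the 5' UTR share was 13.3%, 12.2% and 12.7% in the controls and 10.2%, 11.6% and 11.1% after IR, without overlap (difference -1.76 percentage points, exact permutation p = 0.1). With each distinct sequence counted once this difference was 0.025 and the groups overlapped. The 3' UTR share differed by 1.44 (p = 0.6, exact permutation) and the coding share by 0.619 (p = 0.9, exact permutation), both with overlap.

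The sense share of member reads was lower in each IR library than in each control library. It was 84.9%, 87.6% and 87.1% in the controls and 81.1%, 78.3% and 80.7% after IR, a difference of -6.48 percentage points (exact permutation p = 0.1, the smallest possible). Antisense reads numbered 172, 122 and 211 in the controls and 273, 315 and 205 in IR. In raw reads, 75 members had more of them in the IR group, 16 fewer and 7 the same number. Many of these members had only a few antisense reads, and the libraries are of unequal size. In IR replicate 2, 60 antisense reads were over 50 nt. The same count over all piRNA genes is not given, so these numbers are not read as a trait of the members. On band-named genes the sense share was 43.1% ± 5.34 and 40.5% ± 1.79 (p = 0.5, exact permutation). The change on the members was not detectably different from that on band-named genes (difference -3.89, exact permutation p = 0.5).

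The sense share was tested again by read size and by match to the host. At 20 to 23 nt, control libraries had 80.2%, 81.5% and 80.2% sense reads and IR libraries 68.5%, 72.1% and 70.9% (difference -10.1, exact permutation p = 0.1), and at 24 to 32 nt 90.0% ± 3.19 and 87.0% ± 1.11 with overlapping groups (difference -2.96, p = 0.3, exact). Among reads that match the host exactly control libraries had 99.3%, 98.8% and 98.8% sense reads and IR libraries 99.5%, 98.4% and 97.2% (exact permutation p = 0.5). Antisense reads of 20 to 23 nt in the class with 2 mismatches numbered 22, 26 and 35 in the controls and 61, 80 and 49 in IR. Without reads of more than 50 nt, most of which were in IR replicate 2, the sense share was 86.5% ± 1.46 and 81.2% ± 0.504 and still did not overlap. Without reads of the class with 2 mismatches the difference was -4.40, also without overlap.

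**Figure D4:**
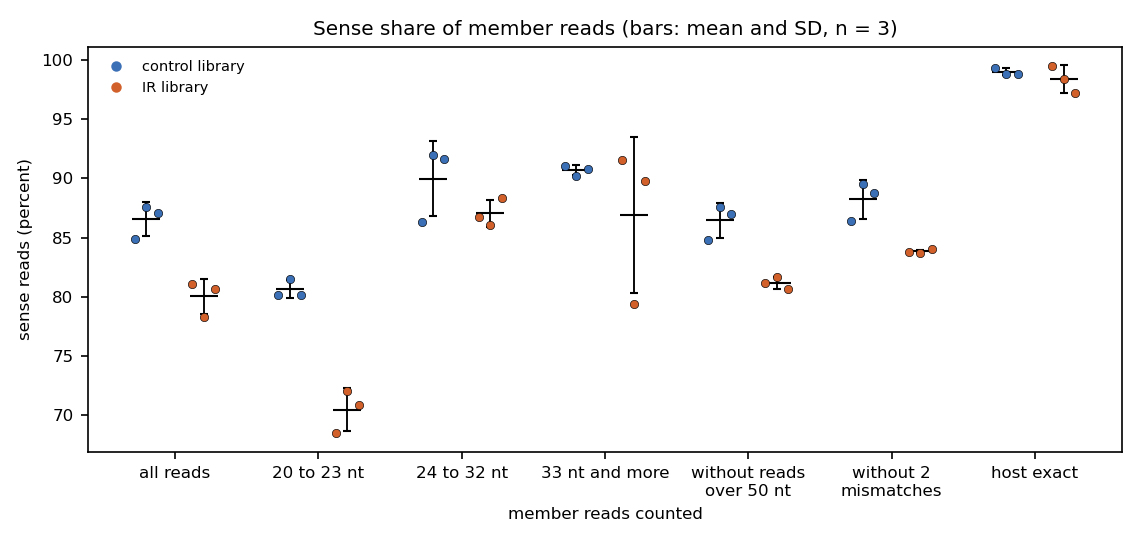
Sense reads as a percent of member reads on the y axis, 1 point per library with mean and SD (n = 3), for all reads and for 6 subsets of reads on the x axis. Control and IR libraries are apart for all reads and at 20 to 23 nt (80.6% against 70.5%), overlap at 24 to 32 nt, and all lie above 97% among exact host reads.

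Reads in the class with 2 mismatches to the host numbered 128, 109 and 162 in the controls and 221, 255 and 143 in IR. They made up 10.7% ± 0.703 and 15.4% ± 2.04 of member reads, without overlap (difference 4.67 percentage points, exact permutation p = 0.1). Exact sense reads took 43.0% ± 3.33 and 39.6% ± 1.08 (p = 0.3, exact permutation). The class with 2 mismatches holds no exact sense copy of another annotated transcript. Whether its reads came from the host, from a related locus or from another RNA was not tested further.

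Single members carried part of the antisense difference. pi-Strbp had 5, 2 and 7 antisense reads in the controls and 17, 21 and 4 in IR, of which those of the Mir466 sequence shown above numbered 0, 0 and 4 against 12, 13 and 2. Its log2 fold change of 0.50 was 0.17 without structured RNA reads and 0.07 for exact host reads (adjusted p = 0.721 and 0.889, edgeR). pi-Rad54l2, at the gene of a chromatin remodeler, had 1, 2 and 1 antisense reads in the controls and 2, 18 and 4 in IR, so that 1 library held most of them. pi-Kcng3 had 8, 7 and 10 antisense reads in the controls and 17, 18 and 9 in IR, a log2 fold change of 0.72 with an SE of 0.27 (adjusted p = 0.141, edgeR). pi-Zfp382 went the other way, with 20, 10 and 13 antisense reads in the controls and 8, 11 and 10 in IR. Its antisense log2 fold change was -0.62 with an SE of 0.35 (adjusted p = 0.296, edgeR). Without pi-Zfp652, pi-Strbp and pi-Rad54l2 the difference in sense share was -5.68 and the groups still did not overlap.

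In pi-Abl2, at a tyrosine kinase gene, sense reads numbered 28, 15 and 39 in the controls and 21, 17 and 7 in IR, and antisense reads 3, 6 and 11 against 17, 5 and 11. The log2 fold change was -0.93 in sense (SE 0.33, adjusted p = 0.108, edgeR) and 0.66 in antisense (SE 0.52, adjusted p = 0.481, edgeR), and the difference between the strands was not tested. Exact host reads of Abl2 numbered 19, 11 and 28 against 14, 12 and 4 (log2 fold change -1.06, adjusted p = 0.136, edgeR), whereas the antisense reads of exact Mir1843b sequence, in the group that also matches Scarna3a alone, numbered 0, 0 and 3 against 5, 3 and 8. With all reads added, the log2 fold change was -0.52 (adjusted p = 0.298, edgeR). Of 45 strand-specific member features, 5 of them antisense, 0 passed an adjusted p of 0.05, against 8.93% of the 112 tested over all piRNA genes (edgeR). At an unadjusted p under 0.05 there were 7, against 27.7% of the 112.

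The first base of exact host reads also differed by group in the shorter size class. At 20 to 23 nt, U stood first in 23.6%, 25.2% and 25.2% of exact reads in the controls and 34.2%, 35.8% and 33.3% in IR, without overlap (difference 9.77 percentage points, exact permutation p = 0.1). At 33 to 50 nt the values were 35.3%, 34.3% and 33.6% against 35.5%, 36.0% and 35.0% (difference 1.13, exact permutation p = 0.2). At 24 to 32 nt the groups overlapped with all members (difference 2.10, p = 0.5, exact permutation). Without pi-Fth1, the values were 32.1%, 27.7% and 29.3% in the controls and 37.3%, 37.5% and 41.1% in IR, a difference of 8.92 without overlap (exact permutation p = 0.1). These size classes and the removal of pi-Fth1 were chosen after the values were seen, and none of the p-values can fall below 0.1.

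**Figure D5:**
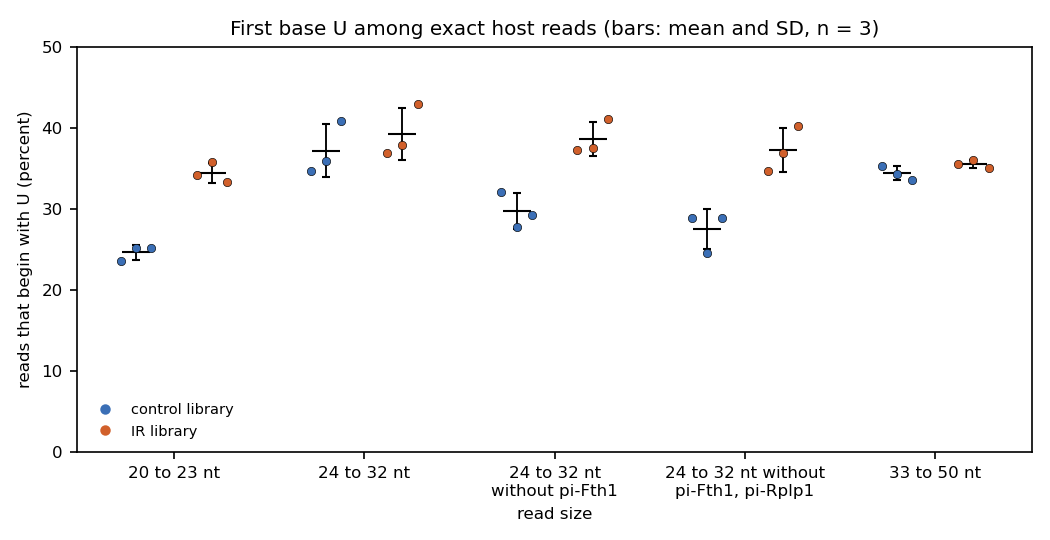
Percent of exact host reads that begin with U on the y axis, 1 point per library with mean and SD (n = 3), by read size and with pi-Fth1 and pi-Rplp1 left out at 24 to 32 nt. Control and IR libraries are apart at 20 to 23 nt and, without pi-Fth1, at 24 to 32 nt, and overlap at 24 to 32 nt with all members.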

How the data were processed

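Small RNA reads of 6 libraries were analysed. Per the labels' protocols, a size selection kept RNA of 18 to 50 nt. The authors deposited, for each read sequence, its count of copies, strand, place on a piRNA cluster transcript and how many places it maps to, the other value used. The build is mm10 per the submitters' processing notes. Aligner, allowed mismatches and filters: not given in the sources used here. Members and lists were chosen with earlier results of these data known.

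CPM are counts over the TMM-scaled sum of counted reads on the 103 genes tested. Counts are copies of sequences whose places all lie in 1 piRNA gene, taken once per library. Of all 214 piRNA genes, the 103 kept by filterByExpr were fitted with edgeR 4.0.16 (limma 3.58.1, R 4.3.3): TMM, quasi-likelihood F-test, Benjamini-Hochberg over 103 genes. Standard errors (SE) were computed as the log2 fold change over the root of F. DESeq2 1.42.0 was an alternative. Shares were compared by exact two-sided permutation (20 regroupings) and within libraries by exact sign-flip (64 patterns, smallest p 0.03125). Reads were compared with GENCODE M21 transcripts exactly, and with host transcripts by up to 2 mismatches at offsets set by exact reads. This matching was chosen after the data were seen. Host coordinates are on GRCm38, the assembly of mm10. Genes named in the text are the 10 members with most reads, the 5 largest changes each way, the extremes of sense, size and first-U shares among members with at least 40 reads, and those on the gene lists. Others are said to be chosen after their values or carry a printed sequence or a strand result. On simulated counts of 103 genes with the same dispersion, 0.0449, for all, the fit found 44% of the 2-fold and 88% of the 4-fold changes. Of its calls 2.58% were false. No library was taken as a repeated deposit, since chi-square tests between libraries of a group gave at most p = 1.08e-08. Other tools were Python 3.11.15 with scipy 1.17.1, pandas 2.3.3, numpy 2.4.6 and matplotlib 3.10.9. Sequences that match no annotated mouse RNA are not printed.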

Additional observations from a re-analysis of the deposited data

How the results depend on the processing

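Of 465 values recomputed under alternatives, 441 kept their direction and their side of the threshold. The count of members called higher became 1 without a low-count filter (pi-Fam53b, 2, 0 and 0 control against 8, 6 and 5 IR reads), and the count called lower became 1 with all reads divided by mapped places (pi-Zfp382) and 0 to 1 when single replicates were left out (pi-Fth1 without control replicate 1). pi-Fam53b, outside the naming rule, was named after its values were seen. No value that changed direction was called in either setting. The log2 fold change of pi-Ccrn4l was 0.14 with reads of 1 mapped place, and that of pi-Cbx5 was -0.01 with no filter, -0.03 with distinct sequences, and -0.09 to 0.23 when replicates were left out. That of pi-Kcng3 was -0.04 to 0.44 when single replicates were left out, the lowest without IR replicate 2. The difference in the members' share of reads was -0.024 with distinct sequences, -0.268 with reads of 1 place and -0.551 to 1.94 without single replicates. That of the coding share was -0.151, -0.903 and -0.614 to 2.37 in the same settings, that of the 3' UTR share -0.156 to 2.26 without single replicates, that of the 5' UTR share 0.025 with distinct sequences, and that of first U -1.11 at 26 to 31 nt. The causes were not tested. The sense share difference ranged from -7.29 to -5.62 when single replicates were left out. With the replicate number as a block, 0 members were called and the sense share difference was -6.48 (exact permutation p = 0.25, the smallest that 3 pairs give). In their deviations from the group means, same-numbered libraries correlated at -0.167, 0.108 and 0.125, and differently numbered ones at -0.251 to 0.13. With 3 libraries a group and few reads per gene, these values cannot decide whether the libraries were paired by number. Depth limits the fits: 62 members had too few reads to be tested.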
